A study of Mus musculus with 6 samples.

Results

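The genes described are 10 mouse genes of MHC class II antigen presentation, namely H2-Aa, H2-Ab1, H2-Eb1, H2-DMa, H2-DMb1, H2-DMb2, H2-Oa, H2-Ob, Cd74 and Ciita. They were found by matching the Ensembl identifiers of the count table to these symbols, and all 10 were present among its 21965 genes. RNA was sequenced from lung interstitial macrophages, which live in the tissue beneath and between the air spaces and had been isolated with labelled antibodies from digested lungs. The WGP group consisted of 3 libraries from C57Bl/6 mice, aged 6 to 8 weeks and kept free of specific pathogens, that had been given 1 mg of the β-glucan preparation labelled WGP intraperitoneally. The PBS group consisted of 3 libraries from mice of the same strain, age and housing given phosphate-buffered saline by the same route. Treatment ran for 6 days per the labels and lungs were harvested on day 7. The labels name neither the antibodies nor the gate, and leave unstated if each library is 1 mouse or a pool, so p-values measure only the spread between these libraries. The libraries held 18254678 to 20346517 counts each, and transcripts of 4 Y-linked genes came to 227, 205 and 220 CPM (counts per library scaled to a common size) in WGP replicates 1, 2 and 3, against 112, 179 and 9.79 CPM in PBS replicates 1, 2 and 3. PBS replicates 1 and 3 stood apart in this, so the class II results are also given without them. Y-linked transcripts come from male cells and the labels used do not give the sex of the mice, so the groups may differ in sex as well as in treatment.

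MHC class II molecules are pairs of an α and a β chain that carry peptides from endosomes to the cell surface, where CD4+ T cells read them. New pairs bind the invariant chain, the product of Cd74, which fills the peptide groove and steers the complex into the endosomal pathway. There cathepsins cut the invariant chain down to a short remnant, H2-DM exchanges the remnant for peptide, and H2-DO restrains H2-DM. Transcription of these genes depends on Ciita, a coactivator that does not bind DNA itself and is held at their promoters by RFX, CREB and NF-Y proteins bound to the X and Y boxes. Dendritic cells, B cells and macrophages are the main cells that express them, and interstitial macrophages are known for higher class II levels than alveolar macrophages.

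The promoter stretches of 6 of these genes are given because the genes share a regulatory layout and yet differed in how their transcripts moved. Each stretch has 59 bases and was taken from the RefSeq promoter windows of build GRCm38.p6, which reach from upstream of each annotated start to just inside the gene. Capitals mark GATTGG, the core letters bound by NF-Y in a Y box, and, where it was found, AACNNATG, letters that lie in the X box region of several of these genes. The second motif was spelled out after these sequences had been read.

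H2-Aa, chr17:34287859-34287917, minus strand: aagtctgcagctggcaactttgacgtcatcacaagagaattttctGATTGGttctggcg
H2-Eb1, chr17:34305762-34305820, plus strand: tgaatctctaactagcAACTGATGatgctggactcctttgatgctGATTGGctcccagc
H2-DMb1, chr17:34153084-34153142, plus strand: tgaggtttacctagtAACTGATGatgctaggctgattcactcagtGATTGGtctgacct
H2-DMb2, chr17:34145113-34145171, plus strand: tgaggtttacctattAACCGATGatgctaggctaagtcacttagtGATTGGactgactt
H2-Oa, chr17:34092290-34092348, plus strand: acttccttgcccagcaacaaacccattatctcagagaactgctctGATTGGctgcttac
H2-Ob, chr17:34238802-34238860, plus strand: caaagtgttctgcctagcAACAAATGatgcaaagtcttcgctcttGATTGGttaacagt

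GATTGG was found on either strand in all 7 genes that had a window, the 6 above and H2-DMa, and in 16.1% of 32851 promoter windows of the whole table. In the 6 stretches it began 44 to 91 bases upstream of the annotated start, at -49 in H2-Aa, -60 in H2-Eb1, -62 in H2-DMb1, -91 in H2-DMb2, -44 in H2-Oa and -58 in H2-Ob. In H2-DMa it lay farther out, at -199, and in only 1 of its windows. AACNNATG was found in 4 of the 7 genes, H2-Eb1, H2-DMb1, H2-DMb2 and H2-Ob, and in 8.86% of all windows. Its start preceded that of GATTGG on the same strand by 29 bases in H2-Eb1, by 30 in H2-DMb1 and H2-DMb2 and by 27 in H2-Ob. A pair 20 to 40 bases apart on the same strand was present in 26 windows, or 0.0791% of all windows. These include windows of H2-Eb2 and of the same 4 genes, whose sequences had been read before the motif was spelled out. A gene was counted if any of its windows held the letters, whereas the percentages count windows, so genes and shares are not directly comparable. H2-Ab1, Cd74 and Ciita were not searched.

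Transcripts of the invariant chain and of the classical class II chains were lower in WGP than in PBS macrophages, at 45.9% to 55.8% of the PBS mean. Of the 10 genes 6 fell, none rose and 4 did not pass the test, where 15.7% of the 12305 genes tested were called lower, 15.2% higher and 31% in either direction. H2-Eb1, H2-DMb2 and H2-Oa were called with a log2 fold change of -1 or lower, as were 9.22% of all genes. The median log2 fold change of the 10 genes was -0.88, against -0.02 over all genes tested. In 7 of the 10 genes all WGP libraries lay below all PBS libraries, an arrangement seen in 24.9% of all genes. Levels are TMM-normalised CPM, and each fold change sets WGP over PBS and carries its SE. The p-values, adjusted by Benjamini-Hochberg across every tested gene, come from the quasi-likelihood test of edgeR, with calls made under 0.05. In bulk RNA, fewer cells that carry class II and less class II RNA per cell cannot be told apart. Without PBS replicates 1 and 3, which held the lowest levels of Y-linked transcripts, 1 of the 10 genes, H2-DMb2, passed the test, with a single PBS library left in that fit. The log2 fold changes there were -0.77 for Cd74 and H2-Aa, -0.80 for H2-Ab1, -1.07 for H2-Eb1 and -1.45 for H2-Oa.

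**Figure D1:**
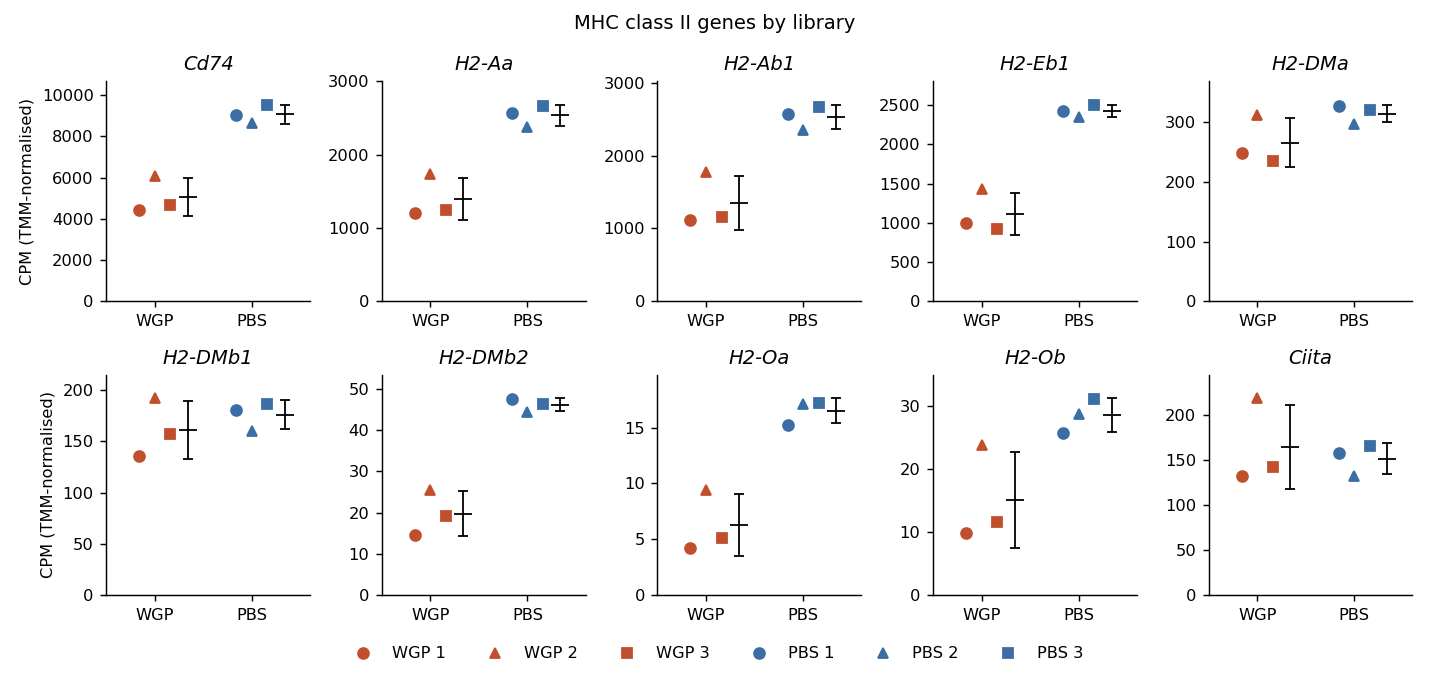
Level of each of the 10 genes in CPM in the 3 WGP and the 3 PBS libraries, with points for libraries and error bars for the mean ± SD, each panel on its own axis from 0. The WGP points lie wholly below the PBS points for H2-Aa, H2-Ab1, H2-Eb1, H2-DMb2, H2-Oa, H2-Ob and Cd74, and overlap them for H2-DMa, H2-DMb1 and Ciita.

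Cd74 (ENSMUSG00000024610, chromosome 18, 60803848 to 60812652, plus strand) had 4408, 6103 and 4679 CPM in WGP replicates 1, 2 and 3, against 9048, 8629 and 9541 CPM in PBS replicates 1, 2 and 3. Every WGP library lay below every PBS library. The means were 5063 ± 910 and 9073 ± 457 CPM (SD, n = 3 each), and the log2 fold change was -0.84 ± 0.12 (adjusted p = 0.00065). By raw counts Cd74 ranked 8, 4 and 7 among all genes in the WGP libraries and 3 in each PBS library. A microRNA gene, Mir5107, overlaps an exon of Cd74 on the same strand.

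H2-Aa encodes the α chain of I-A, the classical class II molecule of C57BL/6 mice (ENSMUSG00000036594, chromosome 17, 34282744 to 34287823, minus strand). It had 1203, 1731 and 1250 CPM in the WGP libraries, against 2572, 2379 and 2660 CPM in the PBS libraries. The groups did not overlap, and the log2 fold change was -0.86 ± 0.14 (adjusted p = 0.0021). H2-Ab1 encodes the partner β chain (ENSMUSG00000073421, chromosome 17, 34257689 to 34269419, plus strand). It had 1122, 1777 and 1161 CPM in the WGP libraries, against 2579, 2353 and 2675 CPM in the PBS libraries. Here too every WGP library lay below every PBS library, with a log2 fold change of -0.91 ± 0.18 (adjusted p = 0.012). H2-Ab1 was no longer called when PBS replicate 1 (adjusted p = 0.053) or PBS replicate 3 (0.075) was left out, or when Y-linked transcripts entered as a covariate (0.088).

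H2-Eb1 (ENSMUSG00000060586, chromosome 17, 34305867 to 34316674, plus strand) encodes the β chain of I-E, the other classical class II molecule, which C57BL/6 mice do not display because their α chain gene of I-E is not functional. It had 998, 1425 and 924 CPM in the WGP libraries, against 2428, 2352 and 2505 CPM in the PBS libraries. The highest WGP library lay well under the lowest PBS library. The means were 1115 ± 270 and 2428 ± 76.5 CPM (SD, n = 3 each), and the log2 fold change was -1.12 ± 0.16 (adjusted p = 0.0018). H2-Eb2, a neighbouring β chain locus outside the 10 genes, was near the bottom of the range, with 2.53, 6.5 and 2.35 CPM in the WGP libraries, against 2.43, 3.43 and 4.13 CPM in the PBS libraries. The groups overlapped, and H2-Eb2 missed the threshold (log2 fold change 0.19 ± 0.45, adjusted p = 0.79).

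Of the genes of H2-DM, the peptide exchange factor, only H2-DMb2 passed the test. H2-DMa, which encodes its α chain (ENSMUSG00000037649, chromosome 17, 34119541 to 34139101, plus strand), had 249, 312 and 236 CPM in the WGP libraries, against 327, 298 and 321 CPM in the PBS libraries. WGP replicate 2 lay inside the PBS range and the other WGP libraries under it, with a log2 fold change of -0.25 ± 0.10 (adjusted p = 0.093). H2-DMb1, a β chain gene (ENSMUSG00000079547, chromosome 17, 34153072 to 34160230, plus strand), had 136, 192 and 157 CPM in the WGP libraries, against 181, 160 and 187 CPM in the PBS libraries. Here the highest value of all 6 libraries was a WGP one, and the log2 fold change was -0.13 ± 0.12 (adjusted p = 0.47). H2-DMb2, the neighbouring β chain gene (ENSMUSG00000037548, chromosome 17, 34143307 to 34151555, plus strand), had 14.6, 25.5 and 19.3 CPM in the WGP libraries, against 47.6, 44.5 and 46.4 CPM in the PBS libraries. It fell to 42.9% of the PBS mean, with no overlap between the groups (log2 fold change -1.22 ± 0.18, adjusted p = 0.00076). Both β chain genes carry the same pair of motifs at the same spacing in the stretches above. Of the runs of 50 bases in the transcripts of H2-DMb1 22.7% also occur in other genes, and of those of H2-DMb2 25.9%, so counts of this pair are less certain.

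The genes of H2-DO, which restrains H2-DM and is best known from B cells, were the least abundant of the set per length. H2-Oa, which encodes its α chain (ENSMUSG00000024334, chromosome 17, 34092340 to 34095234, plus strand), had 4.21, 9.45 and 5.14 CPM in the WGP libraries, against 15.2, 17.1 and 17.2 CPM in the PBS libraries. The groups did not overlap, and H2-Oa fell to 38.1% of the PBS mean (log2 fold change -1.39 ± 0.27, adjusted p = 0.0037). H2-Ob, which encodes the β chain (ENSMUSG00000041538, chromosome 17, 34238903 to 34254414, plus strand), had 9.82, 23.9 and 11.6 CPM in the WGP libraries, against 25.8, 28.7 and 31.1 CPM in the PBS libraries. WGP replicate 2 came close to PBS replicate 1 without reaching it. H2-Ob missed the threshold (log2 fold change -0.92 ± 0.33, adjusted p = 0.078), whereas without WGP replicate 2 it passed (log2 fold change -1.41, adjusted p = 0.00032).

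Ciita (ENSMUSG00000022504, chromosome 16, 10480059 to 10528418, plus strand) had 133, 219 and 143 CPM in the WGP libraries, against 158, 133 and 166 CPM in the PBS libraries. WGP replicate 2 was the highest of the 6 libraries, and the other WGP libraries lay within the PBS range or at its lower end. The means were 165 ± 46.8 and 152 ± 17.5 CPM (SD, n = 3 each), and Ciita missed the threshold (log2 fold change 0.12 ± 0.21, adjusted p = 0.72). Without WGP replicate 2 its log2 fold change was -0.14 (adjusted p = 0.36). The counts cover all Ciita transcripts together, so its promoters are not told apart. Exons of Ciita overlap Dexi, those of H2-DMa overlap Brd2 and those of H2-Oa overlap BC051537, each on the opposite strand. The strand setting of the counting is not given in the sources used here, so reads of these pairs cannot be told apart.

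**Figure D2:**
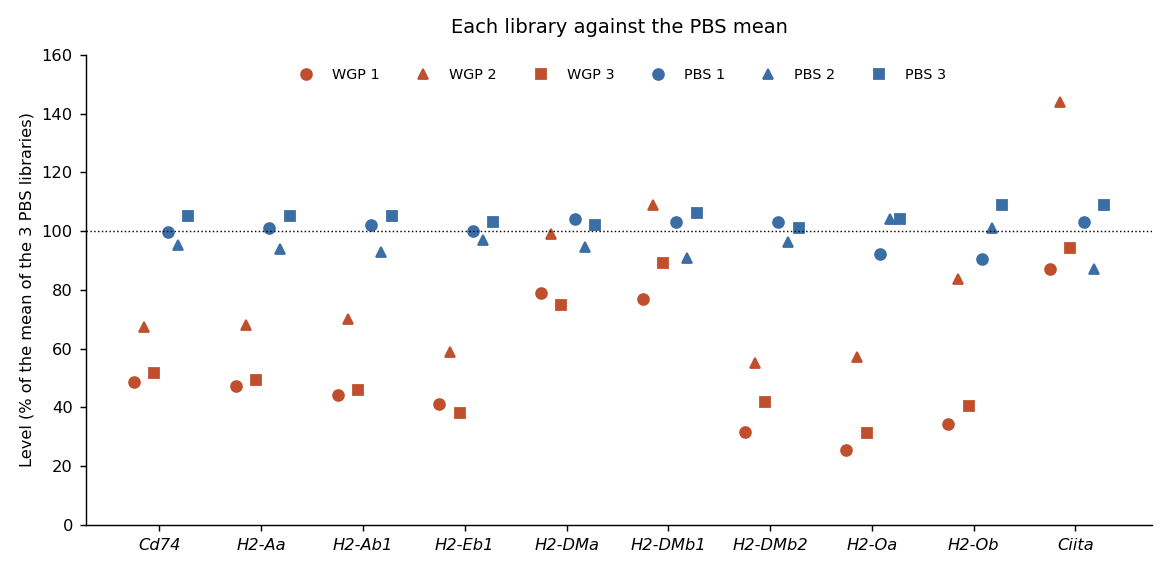
Level of each gene in each library as a percentage of its PBS mean, with WGP libraries left of PBS libraries. WGP replicate 2 is the highest WGP library for all 10 genes, at 144% for Ciita and 109% for H2-DMb1, and at 55.1% to 99.1% for the others.

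WGP replicate 2 held the highest WGP level of all 10 genes, whereas it was the highest WGP library for 34.5% of all genes tested. Its level over the mean of WGP replicates 1 and 3 ran from 1.29-fold for H2-DMa to 2.23-fold for H2-Ob, against a median of 0.996 over all genes, and 16.3% of all genes reached the H2-DMa value. Among the PBS libraries replicate 2 was the lowest for 8 of the 10 genes, all but H2-Oa and H2-Ob. Summed over the 10 genes, class II transcripts took 0.808%, 1.15% and 0.812% of the counts in WGP replicates 1, 2 and 3, against 1.83%, 1.67% and 1.88% in PBS replicates 1, 2 and 3. Irf1, an interferon-induced activator of Ciita transcription, also had its highest level in WGP replicate 2, with 278, 518 and 318 CPM in the WGP libraries, against 217, 160 and 242 CPM in the PBS libraries. All its WGP libraries lay above all PBS libraries, but it missed the threshold (log2 fold change 0.85 ± 0.30, adjusted p = 0.098). Irf1 was chosen after its values were seen, and its part in the class II levels was not tested. Markers of several other cell types were also higher in WGP replicate 2 than in the mean of WGP replicates 1 and 3. The median was 2.39-fold for B cells, 2.52-fold for T and NK cells, 1.89-fold for alveolar macrophages and 1.19-fold for conventional dendritic cells. The same median was 0.96 for interstitial macrophages and 0.92 for classical monocytes, and H2-Eb2 was 2.66-fold higher. Markers of plasmacytoid dendritic cells went both ways. Their median was 2.82-fold, but their sum was lowest in WGP replicate 2, with 132, 111 and 124 CPM in the WGP libraries. Tcf4 made up most of that sum, at 131, 104 and 121 CPM. Siglech, Ccr9 and Pacsin1 were at 2.69 CPM or less in WGP. The part of these cells in the excess was not tested. Without WGP replicate 2, 8 of the 10 genes were called lower, H2-DMa among them (log2 fold change -0.38, adjusted p = 0.0075).

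Compared per length, as CPM per kilobase of exon, Cd74 stood far above the others, at 3016 ± 542 in WGP and 5404 ± 272 in PBS macrophages (SD, n = 3 each). H2-Eb1 followed at 574 ± 139 in WGP and 1249 ± 39.3 in PBS, then H2-Ab1 at 527 ± 143 and 987 ± 64.3, then H2-Aa at 367 ± 77 and 668 ± 37.8. In PBS macrophages these 3 chains were separated by more than their SD, whereas in WGP macrophages H2-Eb1 and H2-Ab1 differed by less than their SD. Within each WGP library H2-Eb1 was still above H2-Ab1, at 513, 733 and 475 against 437, 692 and 452. H2-DMb1 at 96.1 ± 16.8 in WGP and 105 ± 8.36 in PBS, and H2-DMa at 77 ± 11.9 and 91.4 ± 4.32, formed the next tier. Ciita stood at 17.3 ± 4.91 in WGP and 16 ± 1.83 in PBS, and H2-DMb2 at 11.3 ± 3.12 and 26.4 ± 0.877, so that their order differed between the groups. H2-Oa, at 4.46 ± 1.99 in WGP and 11.7 ± 0.793 in PBS, and H2-Ob, at 2.81 ± 1.42 and 5.31 ± 0.491, came last. With the longest transcript as the length, H2-Ab1 moved ahead of H2-Eb1 and H2-DMa ahead of H2-DMb1 in both groups, and H2-Ob ahead of H2-Oa in WGP.

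Ratios between chains within each library, on the log2 scale of levels per length, compare the genes free of library scaling. H2-DMa over H2-Ab1 was -2.6, -2.93 and -2.73 in the WGP libraries, against -3.41, -3.4 and -3.49 in the PBS libraries. The groups did not overlap, and the difference of 0.68 means that H2-DMa was 1.6-fold higher relative to H2-Ab1 in WGP macrophages. H2-Oa over H2-DMa was -4.59, -3.75 and -4.22 in the WGP libraries, against -3.13, -2.83 and -2.93 in the PBS libraries, a difference of -1.23 with no overlap. H2-Eb1 over H2-Ab1 was 0.23, 0.08 and 0.07 in the WGP libraries, against 0.31, 0.4 and 0.31 in the PBS libraries, a difference of -0.21, also with no overlap. Each of these 3 ratios reached p = 0.1 in the exact two-sided permutation test, the smallest that 3 against 3 libraries allow (adjusted p = 0.2 over 6 ratios). The groups overlapped for the other ratios, with a difference of 0.06 for H2-Aa over H2-Ab1 and 0.08 for Cd74 over H2-Ab1 (exact permutation p = 0.4 each), and 0.05 for H2-DMa over the sum of H2-DMb1 and H2-DMb2 (exact permutation p = 0.8).

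**Figure D3:**
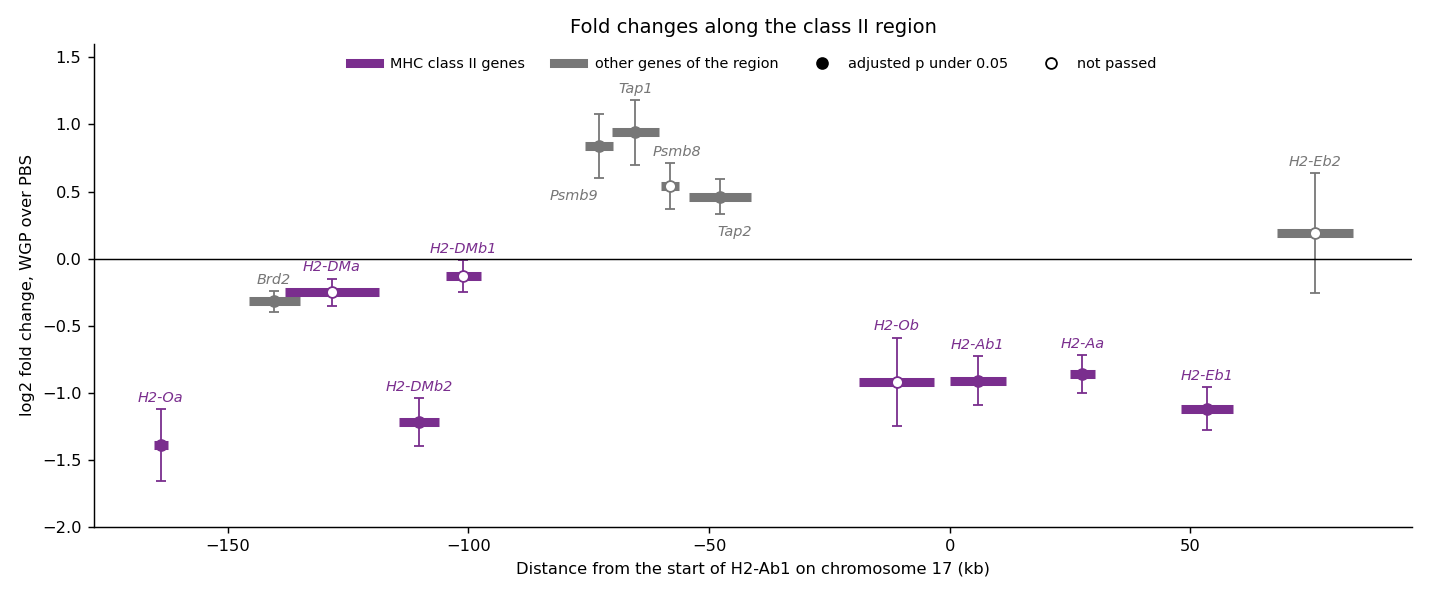
Genes of the class II region of chromosome 17 by distance from the start of H2-Ab1 in kilobases, each drawn as a bar over its length at its log2 fold change of WGP over PBS, with error bars for the SE and filled points for adjusted p under 0.05. Class II genes lie below 0 apart from H2-Eb2, while Tap1, Tap2, Psmb8 and Psmb9, which sit among them, lie above 0.

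The genes that lie among the class II genes on chromosome 17 were called in both directions. Of 5 such neighbours, 3 were called higher, 1 lower and 1 did not pass the test, with a median log2 fold change of 0.54. Over all genes tested 15.2% were called higher and 15.7% lower, and with 5 genes a call more or less moves the share widely. Tap1, a subunit of the transporter that brings peptides to MHC class I, had 299, 442 and 307 CPM in the WGP libraries, against 180, 140 and 226 CPM in the PBS libraries. No WGP library reached down to the PBS range (log2 fold change 0.94 ± 0.24, adjusted p = 0.033). Tap2, its partner subunit, changed by 0.46 ± 0.13 (adjusted p = 0.025) and Psmb9, an immunoproteasome subunit, by 0.84 ± 0.24 (adjusted p = 0.048). Psmb8, another immunoproteasome subunit, did not pass the test, at 0.54 ± 0.17 (adjusted p = 0.055). Brd2, a bromodomain protein gene that overlaps H2-DMa, fell by 0.32 on the log2 scale (SE 0.08, adjusted p = 0.01). All 3 higher calls were lost without PBS replicate 1 (adjusted p = 0.12 for Tap1, 0.11 for Tap2 and 0.14 for Psmb9) or WGP replicate 3 (0.051, 0.059 and 0.07), those of Tap1 and Tap2 also without PBS replicate 2 (0.059 and 0.1), and that of Psmb9 without WGP replicate 1 (0.1) or WGP replicate 2 (0.11). None of the 3 was called when scaled by upper quartiles or by library size only, where their log2 fold changes ran from 0.36 to 0.88.

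The proteins that hold Ciita at class II promoters, and the coactivators that work with it, were measured as a list of 12 genes. Of these 3 rose, none fell and 9 did not pass the test, with a median log2 fold change of 0.13. Over all genes tested 15.2% rose and 31% were called in either direction, so the share called in this list was near that of the whole table. Kat2b, a histone acetyltransferase that acts with Ciita, had 89.6, 88.2 and 101 CPM in the WGP libraries, against 68, 67 and 67.6 CPM in the PBS libraries (log2 fold change 0.46 ± 0.08, adjusted p = 0.0017). Nfyc, a subunit of the Y box factor NF-Y, rose by 0.39 ± 0.10 (adjusted p = 0.012), and Ep300, another acetyltransferase, by 0.28 ± 0.07 (adjusted p = 0.011). Without PBS replicate 1 the adjusted p was 0.051 for Nfyc and 0.056 for Ep300, which left 1 gene called. The subunits of RFX, the X box factor, did not pass the test, among them Rfx5 with a log2 fold change of 0.40 ± 0.20 (adjusted p = 0.16). Rfx5 was called higher without PBS replicate 3 (0.66, adjusted p = 0.018) and with Y-linked transcripts as a covariate (0.79, adjusted p = 0.0095). Without PBS replicates 1 and 3 together its log2 fold change was 0.86.

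Of 12 regulators of Ciita transcription 5 rose, none fell and 7 did not pass the test, with a median log2 fold change of 0.33, where 15.2% of all genes rose and 15.7% fell. Irf8, a myeloid interferon regulatory factor, had 290, 394 and 344 CPM in the WGP libraries, against 173, 139 and 192 CPM in the PBS libraries. Every WGP library was above every PBS library (log2 fold change 1.03 ± 0.14, adjusted p = 0.0014). The interferon-γ receptor chains rose by 0.34 ± 0.07 for Ifngr1 (adjusted p = 0.0039) and by 0.50 ± 0.08 for Ifngr2 (adjusted p = 0.00083). Usf1, a factor that binds the interferon-responsive Ciita promoter, rose by 0.46 ± 0.07 (adjusted p = 0.00063), and Spi1, the myeloid factor PU.1, by 0.32 ± 0.07 (adjusted p = 0.0069).

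Among 9 measured genes of invariant chain cleavage and antigen processing, 4 fell, 2 rose and 3 did not pass the test, with a median log2 fold change of -0.10, where 15.7% of all genes fell and 15.2% rose. Ctsd, an aspartic protease of lysosomes, had 330, 395 and 337 CPM in the WGP libraries, against 1150, 1293 and 852 CPM in the PBS libraries. It changed the most of the list, with no overlap (log2 fold change -1.63 ± 0.16, adjusted p = 0.00033). Ctsl, the invariant chain protease of thymic epithelium, fell by 0.65 on the log2 scale (SE 0.10, adjusted p = 0.00071), and Lgmn, the asparagine endopeptidase, fell by 0.43 (SE 0.09, adjusted p = 0.0044). Cst3, a cathepsin inhibitor, fell by 0.26 (SE 0.07, adjusted p = 0.023), a call lost without WGP replicate 1 (0.079) or WGP replicate 3 (0.061). Sppl2a, which clears the membrane stub of the invariant chain, rose by 0.40 ± 0.07 (adjusted p = 0.0013) and the protease gene Ctsh by 0.28 ± 0.07 (adjusted p = 0.0096). Ctss, the main protease of the invariant chain in antigen-presenting cells, had 2112, 2400 and 2178 CPM in the WGP libraries, against 2192, 2219 and 2184 CPM in the PBS libraries. Its groups overlapped (log2 fold change 0.02 ± 0.07, adjusted p = 0.85).

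Of 7 genes of class II ubiquitination and traffic, 2 fell, 2 rose and 3 did not pass the test, with a median log2 fold change of -0.06. The shares over all genes were 15.7% lower and 15.2% higher, and with 7 genes a call more or less moves the share of the list widely. March1, the ubiquitin ligase that removes class II from the surface, averaged 196 ± 1.43 CPM in WGP and 145 ± 9.38 CPM in PBS macrophages (SD, n = 3 each). It rose by 0.43 ± 0.07 on the log2 scale (adjusted p = 0.0012). March8, its close relative, had 17.2, 11.7 and 17.1 CPM in the WGP libraries, against 39, 36.1 and 29.3 CPM in the PBS libraries (log2 fold change -1.18 ± 0.17, adjusted p = 0.00065). Cd83, which opposes March1 at the class II molecule, had 220, 191 and 259 CPM in the WGP libraries, against 323, 399 and 434 CPM in the PBS libraries (log2 fold change -0.79 ± 0.14, adjusted p = 0.0036). Ap1m1, a clathrin adaptor subunit, rose by 0.31 ± 0.08 (adjusted p = 0.018), a call lost without PBS replicate 1 (0.085) or WGP replicate 3 (0.08). At the cell surface Cd74 also acts as the receptor of Mif and Ddt, with Cd44, Cxcr2 and Cxcr4 as partners. None of these 5 genes passed the test, with adjusted p-values between 0.5 and 0.97.

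Markers of other cells that carry class II moved unequally beside these genes. All 13 listed markers of conventional dendritic cells were detected, and summed to 225, 270 and 253 CPM in the WGP libraries, against 565, 436 and 557 CPM in the PBS libraries. The groups did not overlap, 5 of the 13 fell and none rose, with a median log2 fold change of -1.03. Over all genes tested 15.7% fell and 15.2% rose. Cd209a had 42.8, 54.4 and 58.9 CPM in the WGP libraries, against 157, 137 and 145 CPM in the PBS libraries (log2 fold change -1.49 ± 0.11, adjusted p = 2.4e-05). The others that fell were Ccl17 (-2.88 ± 0.17), Ccl22 (-1.84 ± 0.32), Cacnb3 (-1.60 ± 0.28) and Zbtb46 (-0.95 ± 0.23). With Y-linked transcripts as a covariate 3 of the 13 fell, and 2 without PBS replicates 1 and 3. The 11 markers of B cells summed to 78.4, 142 and 105 CPM in the WGP libraries, against 149, 147 and 175 CPM in the PBS libraries, with WGP replicate 2 close under PBS replicate 2. Of these only Cd22 fell (34.3, 33.7 and 32.6 CPM in WGP, against 72.8, 78.2 and 71.5 CPM in PBS, log2 fold change -1.15 ± 0.09, adjusted p = 1.8e-05), and without WGP replicate 2 there were 2. The part of these cells in the class II levels was not tested.

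**Figure D4:**
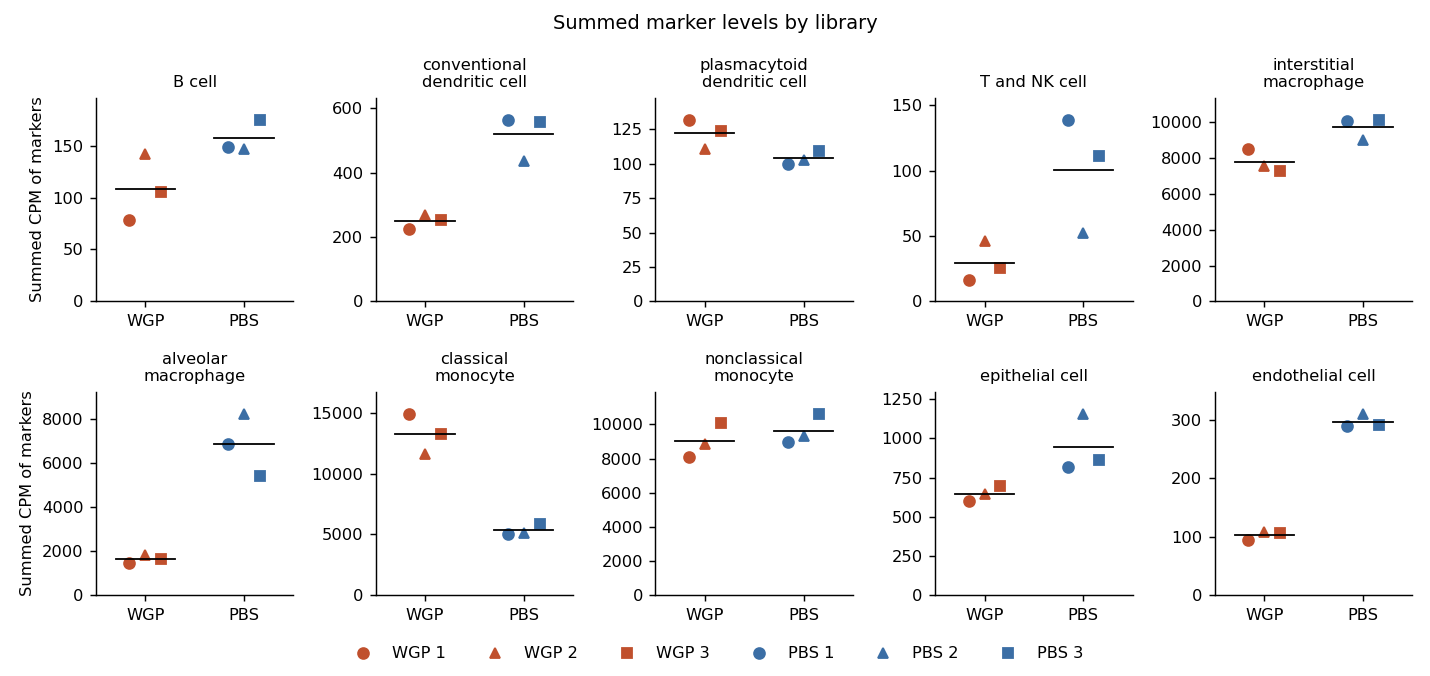
Summed CPM of the listed markers of each cell type in the 3 WGP and the 3 PBS libraries, 1 panel for each type on its own linear axis from 0, with a line at the mean. The groups overlap for nonclassical monocytes only. Sums for classical monocytes and plasmacytoid dendritic cells lie higher in WGP, and those for the other 7 types, interstitial macrophages and B cells included, lie lower. Tcf4 alone makes up most of the plasmacytoid dendritic cell sum, and Napsa alone most of the epithelial sum in WGP. The B cell sums came close, at 142 CPM in WGP replicate 2 and 147 CPM in PBS replicate 2. Of the 11 B cell markers only Cd22 was called lower, averaging 33.5 CPM in WGP and 74.2 CPM in PBS, and 10 did not pass the test.

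Other marker lists moved more widely, where 15.7% of all genes tested were called lower and 15.2% higher. The 14 markers of alveolar macrophages summed to between 1452 and 1834 CPM in WGP and between 5427 and 8272 CPM in PBS, and 13 of them fell. That count was 7 without PBS replicate 1 or without PBS replicate 2, and 8 without WGP replicate 3. All 11 markers of classical monocytes rose, with sums between 11601 and 14967 CPM in WGP and between 5029 and 5830 CPM in PBS. Vcan and F13a1 were not called without PBS replicate 1 or without PBS replicate 2, which left 9. Vcan was also not called without PBS replicate 3 or WGP replicate 3. The sorted cell's own 16 markers were all detected, with sums between 7276 and 8518 CPM in WGP and between 9019 and 10147 CPM in PBS. Of these Csf1r, Cx3cr1 and Fcgr1 rose and Apoe, Mertk, Mrc1 and Ms4a7 fell. Without WGP replicate 1 the number that fell was 9, and without WGP replicate 3 it was 7. Cx3cr1 was not called when PBS replicate 1 (adjusted p = 0.088), WGP replicate 2 (0.055) or WGP replicate 3 (0.061) was left out. Csf1r, the receptor for macrophage colony-stimulating factor, averaged 2965 ± 23.2 CPM in WGP and 2357 ± 199 CPM in PBS (SD, n = 3 each). Apoe, the next most abundant of the 16, averaged 1700 ± 172 CPM in WGP and 2637 ± 345 CPM in PBS. Mertk, an efferocytosis receptor of macrophages, averaged 20.6 ± 3.72 CPM in WGP and 166 ± 36.9 CPM in PBS, the largest fall of the 16. Sums for endothelial cells were 93.6 to 108 CPM in WGP and 290 to 311 CPM in PBS, with 5 of 6 markers lower. Those for epithelial cells were 603 to 695 CPM in WGP and 818 to 1159 CPM in PBS, with 8 of 11 markers lower and 1, Napsa, higher, and those for T and NK cells were 16.3 to 45.8 CPM in WGP and 52.6 to 139 CPM in PBS, with 2 of 7 lower, Il7r and Klrd1. Napsa averaged 596 CPM in WGP and 467 CPM in PBS, so it made up most of the epithelial sum in WGP. The count of lower epithelial markers was 5 when PBS replicate 1, or PBS replicate 3, or WGP replicate 2 was left out, and Napsa was not called when PBS replicate 1 or 2 or WGP replicate 3 was. The T and NK count was 1 when any library but PBS replicate 2 or WGP replicate 3 was left out. Sums overlapped for nonclassical monocytes, with Cd36 and Fabp4 lower and Pou2f2 higher of 8 markers. These sums, 8111 to 10111 CPM in WGP and 8952 to 10639 CPM in PBS, were as large as those of the 16 interstitial macrophage markers. Nr4a1, one of the 8, averaged 3432 CPM in WGP and 3658 CPM in PBS, above each of those 16. For plasmacytoid dendritic cells the sums were 111 to 132 CPM in WGP and 99.6 to 109 CPM in PBS, with Siglech and Ccr9 lower and Tcf4 higher of 4 tested. Most of these sums was Tcf4, which averaged 118 CPM in WGP and 90 CPM in PBS. In this list the lower count was 1 when any library but PBS replicate 2 or WGP replicate 2 was left out, and Tcf4 was not called when PBS replicate 1 was. No listed marker was at 0 in all libraries, and Klk1, a marker of plasmacytoid dendritic cells, was at 0 in the 3 WGP libraries. The part of these shifts in the class II levels was not tested.

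The genes whose pattern over the 6 libraries was most like that of the 4 abundant class II genes were sought among 9468 genes with a mean of at least 5 CPM. The class II genes themselves, predicted gene models and pseudogenes were passed over in this order. Likeness was the Pearson correlation with the mean log2 CPM of H2-Aa, H2-Ab1, H2-Eb1 and Cd74, given as a description, since the 6 libraries form only 2 groups. Of the remaining genes Tent5c came first (r = 0.9978), with 7.8, 15.2 and 8.81 CPM in the WGP libraries, against 37.4, 32.2 and 38.2 CPM in the PBS libraries. It has the same order within each group as H2-Ab1, with WGP replicate 2 highest of WGP and PBS replicate 2 lowest of PBS. Pip4k2c (r = 0.9953), Als2cl (0.9932), Ube2g2 (0.9929) and Dynll1 (0.9927) followed, with log2 fold changes of -0.34, -0.94, -0.36 and -0.53. Among the class II genes outside that mean, r was 0.987 for H2-Oa, 0.984 for H2-DMb2, 0.947 for H2-Ob, 0.9 for H2-DMa, 0.666 for H2-DMb1 and 0.182 for Ciita.

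**Figure D5:**
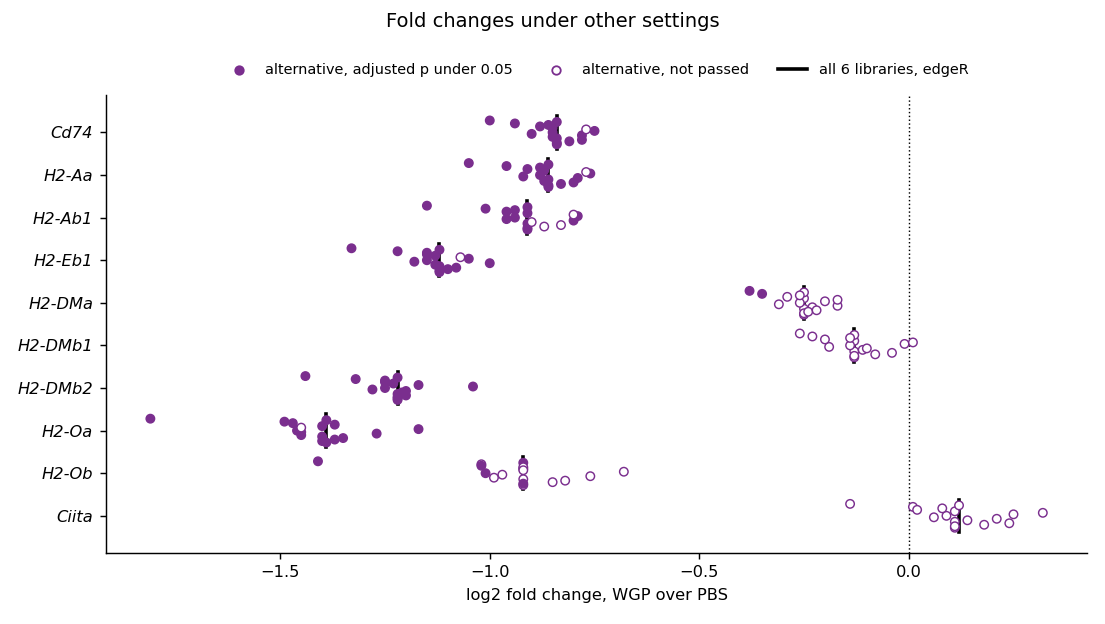
Log2 fold change of WGP over PBS for each of the 10 genes, with a vertical mark for the fit of all 6 libraries and points for the 17 alternatives, filled where the adjusted p was under 0.05. H2-DMb2 passed under all 17, Cd74, H2-Aa, H2-Eb1 and H2-Oa under 16, H2-Ab1 under 13, H2-Ob under 5, H2-DMa under 2, and H2-DMb1 and Ciita under 0.

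Over all 17 alternatives the log2 fold change stayed below 0 for every class II gene except Ciita, which ran from -0.14 to 0.32, and H2-DMb1, which ran from -0.26 to 0.01.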

How the data were processed

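The deposited values are raw read counts per gene, which the authors made. The submitters' processing notes name FastQC 0.10.1, HTSeq 0.10.0, mm10 and GRCm38. No aligner, counting annotation or strand setting is stated, and these are not given in the sources used. Per the labels' protocols the libraries were made from polyA RNA with a NuGEN kit. GENCODE M21 matched 21939 of 21965 identifiers and supplied symbols, coordinates and exon lengths, and the promoter windows were RefSeq's for GRCm38.p6.

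The fit used R 4.3.3 and edgeR 4.0.16 (low-count filter filterByExpr, TMM scaling, robust glmQLFit, quasi-likelihood F test, two-sided) over 12305 genes, with Benjamini-Hochberg adjustment and a threshold of 0.05. Log2 CPM used a prior count of 2. The SE is the log2 fold change divided by the square root of F. The procedure was tested on simulated data. It recovered 29% of 1.5-fold, 67.2% of 2-fold and 76.6% of 4-fold changes, so a gene that missed the threshold may still have changed. The simulation changed 200 genes, whereas 3809 were called in the data. The adjustment was therefore stricter in the simulation, and these rates need not hold for the data. Of the 64 genes changed 4-fold, 57 passed the low-count filter, and the rest count as not recovered. A count of 0 allows up to 3 counts, and intervals and floors cover counting error only. Replicates of a group differed by more than sampling noise, with chi-square values of 13.5 to 24.8 per degree of freedom.

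The genes and lists were chosen with earlier results of these data known. Named were the 10 genes, up to 4 called genes of each pathway list by smallest p, all genes of lists or counts of 5 or fewer, the most abundant markers, some of which are left out here, and the 5 genes most alike in pattern. Ctss, Rfx5 and Irf1 were chosen after their values were seen, and the levels of Mertk are given outside these rules. Ifi30 and H2-Ea-ps were not analysed here, and 1 gene of the lists is not reported here. Alternatives were other scalings, filters and tests (DESeq2 1.42.0, limma 3.58.1 voom), leaving out libraries, a replicate block and a Y-linked covariate.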

Additional observations from a re-analysis of the deposited data

How the results depend on the processing

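The number of class II genes called lower was 6 and ran from 5 to 8 when single libraries were left out, and their median log2 fold change of -0.88 ran from -1.10 to -0.76. Over all genes, leaving out single libraries gave 2491 to 3717 calls, 1289 to 1964 lower and 1202 to 1753 higher, the lowest numbers without PBS replicate 1. Scaling by library sizes alone gave 2460 genes lower and 1236 higher, where TMM gave 1935 and 1874, and there H2-DMa passed (-0.35, adjusted p = 0.038). H2-Ob passed with DESeq2 (-0.92, adjusted p = 0.0054), limma-voom (-1.01, 0.015) and edgeR without robust estimation (-0.92, 0.042). Leaving out single libraries moved log2 fold changes between -1.15 and -0.79 for H2-Ab1, -0.38 and -0.17 for H2-DMa, -1.41 and -0.68 for H2-Ob and -0.14 and 0.25 for Ciita, and the log2 ratio of H2-DMa to the H2-DMb genes between -0.04 and 0.12. The Y-linked covariate gave -0.83 for H2-Ab1 (adjusted p = 0.088). Without PBS replicates 1 and 3 together, 1 class II gene was lower, 827 genes in all were lower and 993 higher (1820 in total), and 45 genes of the pathway and marker lists were called in place of 81. There H2-Aa was at -0.77 (adjusted p = 0.14), H2-Ab1 at -0.80 (0.29), H2-Eb1 at -1.07 (0.13), H2-Oa at -1.45 (0.059), Cd74 at -0.77 (0.07) and H2-DMb1 at 0.01 (0.98), with 1 PBS library assumed to vary like the WGP libraries. With the longest transcript as the length H2-Ab1 ranked 2, H2-Eb1 3, H2-DMa 5 and H2-DMb1 6 in both groups, and in WGP H2-Ob ranked 9 and H2-Oa 10. Same-numbered libraries deviated with correlations of -0.06, -0.08 and -0.05, and differently numbered ones with -0.04 to 0.11. No pairing by number was seen in these values, which are too alike to exclude one. With the replicate number as a block 3185 genes were called (1601 lower and 1584 higher) and H2-Ob passed (-1.02, adjusted p = 0.038), and the block changed no other call among the 10 genes. The cause of these changes was not tested, and some alternatives hold fewer libraries.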
